A study of Drosophila melanogaster with 4 samples.

Results

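Isolated autosomal H3K79me1 regions are short stretches called as enriched that stand alone, with no other called region close by in the same list. They were taken from the authors' combined list of regions enriched for histone H3 monomethylated at lysine 79 (H3K79me1). A region was kept if it lay on chromosome arm 2L, 3L or 3R, was under 15 kb wide, and had at least 10 kb free of enriched regions on each side. Regions starting beyond 20 Mb on 2L or 21.5 Mb on 3L, toward the centromere, were left out. This gave 183 regions, out of 7596 enriched regions in the combined list and 4469 inside the same limits on these arms, or 4.09% of the latter. The regions were thus selected on their width and on the distance to their neighbours, both measured in the combined list. These values and the scores of that list are given as a description, with no test.

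The chromatin came from L3 larvae, the last larval stage, of the Oregon-R-modENCODE strain of Drosophila melanogaster, which is wild type, with no treatment named. The series held 2 ChIP libraries, made with a rabbit antibody from Abcam against H3K79me1, and 2 input libraries, which had no list of their own among the files used here. The larvae were harvested from bottles and were not said to be sexed, and whether the 2 replicates stem from separate cultures is not stated. The labels gave the monomethylated form as the target, while the reference page they name for the antibody speaks of the dimethylated form. The chromatin was a bulk sample, so few cells with a strong mark and many cells with a weak one cannot be told apart.

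Methylation of H3 lysine 79 is placed by Dot1, the enzyme called grappa in flies, and lies on the core of the nucleosome rather than on the histone tail. Dot1 lacks the SET domain that most other histone lysine methyltransferases share. The mark is known from transcribed gene bodies in flies, yeast and mammals. The only gene table used was of release 6 of the fly genome and the regions of release 5, so no gene, exon or intron is assigned to a region here, and no sequence is printed. All positions below are of FlyBase release 5.

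Most isolated regions were small, and a minority reached the scores typical of broad domains on the same arms. Their widths ran from 1001 to 14274 bp, with a median of 2335 bp and quartiles of 1486 and 4526 bp. By width, 75 were under 2 kb, 56 were 2 to 4 kb, 29 were 4 to 8 kb and 23 were 8 to 15 kb. Together they held 672 kb, or 2.62% of the length of all enriched regions inside the limits. Their scores in the combined list ran from 0.129 to 1.47 with a median of 0.456. The score is the authors' and behaved as a log2 value, as the processing section describes, so 1 unit is a doubling. The median of the 3921 other regions under 15 kb inside the limits was 0.458. These are called regions with a closer neighbour below, although 2 of them were the first or last of an arm, with 1 neighbour only, at 10 kb or more. The median of the 365 broad regions of 15 kb or more was 1.03. Isolated regions at a score of 1 or more numbered 22, and the share at that score is not given for the other regions. From 8 to 15 kb the upper quartile of the scores was 1.16 for isolated regions and 1.09 for those with a closer neighbour. Of the 183, 44.3% reached the median score of the combined list, against 47.3% of all regions inside the limits.

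The question put to the replicates was whether each isolated region was also called in the 2 ChIP libraries on their own. Of the 183 regions, 111 were overlapped by at least 1 bp in both replicate lists, which was 60.7% (exact 95% interval 53.2% to 67.8%, counting error only). The same held for 65.2% of all 4469 regions inside the limits and for 62.1% of regions under 15 kb with a closer neighbour. Replicate 1 held 125 of the isolated regions and replicate 2 held 130, or 69.7% ± 1.93 (SD, n = 2). Another 14 were in replicate 1 alone, 19 in replicate 2 alone and 39 in neither, or 21.3%, against 18.1% of all regions inside the limits. The difference from regions with a closer neighbour was -1.47 percentage points, and it turned to 4.31 when taken within width bins and to 6.65 under 50% reciprocal overlap. The combined list came from the same series and is not independent of the replicate lists, so no test was made between these shares.

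As in the list as a whole, width went with being found in both replicates. All 52 isolated regions of 4 kb or more were in both replicates. Of those between 2 and 4 kb, 48 of 56 were in both (85.7%), and of those under 2 kb 11 of 75 were (14.7%). Regions with a closer neighbour were in both in 98.0% of cases from 4 to 8 kb, 100% from 8 to 15 kb, 77.4% from 2 to 4 kb and 11.1% under 2 kb. The widest isolated region not in both was 2930 bp, and the narrowest in both was 1550 bp. No region of a replicate list was narrower than 1301 bp, while the combined list reached down to 1001 bp. Of the 30 isolated regions narrower than 1301 bp, 24 were in neither replicate and 0 in both, and of the 153 others 111 were in both and 15 in neither. Under 2 kb, 50.7% of isolated regions were in neither, against 52.5% of regions with a closer neighbour. The share of the latter below 1301 bp is not given here. A wider region can also be overlapped more easily under the 1 bp rule, and how far this adds to the rise with width was not tested. With the stricter demand that each replicate cover at least 50% of the region, 109 (59.6%) passed in both. The share was 61.7% for all regions inside the limits, which include the broad ones. The difference from regions with a closer neighbour was then 1.31 percentage points.

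**Figure D1:**
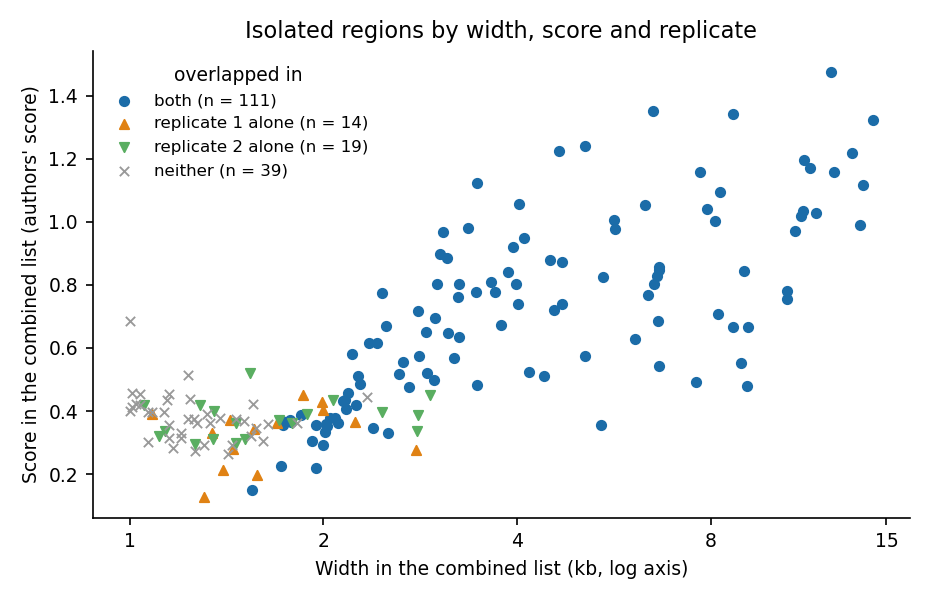
Each point is 1 of the 183 isolated regions, placed by its width in kb on a log axis and its score, both from the combined list, with colour and marker showing the replicate lists that overlap it. The regions found in neither replicate lie at the narrow end, while all those of 4 kb or more were in both replicates.

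The isolated regions in both replicates were wider and scored higher in the combined list than the others. Their median width was 3778 bp and their median score 0.709. For the 39 in neither the medians were 1233 bp and 0.375. Those in replicate 1 alone had medians of 1569 bp and 0.352, and those in replicate 2 alone of 1509 bp and 0.371. The widest region in neither measured 2335 bp. In the median, replicate 1 covered 94.0% and replicate 2 covered 96.5% of an isolated region that was in both.

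The highest score of an isolated region was on 3L, from 20987974 to 21000265, a block of 12.3 kb whose nearer neighbour was 20.4 kb away. Its score was 1.47 in the combined list, 1.47 in replicate 1 and 1.48 in replicate 2. It stood at the 99.2 percentile of the whole combined list and at the 98.1 and 98.7 percentiles of the replicate lists. Next on that arm came 3L from 7503921 to 7510427, of 6.51 kb, with scores of 1.35, 1.36 and 1.39 in the combined list, replicate 1 and replicate 2. After it on 3L, the region from 13435277 to 13443923, scored 1.34 in the combined list, 1.34 in replicate 1 and 1.39 in replicate 2. These 3 regions thus scored alike in both replicates and lay among the highest 5% of each replicate list.

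On 3R the highest isolated region lay from 25140576 to 25145671, was 5.10 kb wide, and scored 1.24 in the combined list, 1.22 in replicate 1 and 1.32 in replicate 2. It had an empty stretch of 138 kb on its right and one of 15.8 kb on its left. The next, 3R from 7833448 to 7844620, scored 1.20, 1.26 and 1.17 in the same order, and 3R from 9086742 to 9098134 scored 1.17, 1.22 and 1.18. Both of these were about 11 kb wide, and the second of them faced an empty stretch of 171 kb on its left.

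On 2L the highest was from 15113338 to 15117977, 4.64 kb wide, with scores of 1.22 in the combined list, 1.35 in replicate 1 and 1.21 in replicate 2. It stood 45.2 kb from its left neighbour and 137 kb from its right one. A wider block on 2L from 1973766 to 1987007 (13.2 kb) scored 1.22, 1.24 and 1.24. The next, 2L from 12975356 to 12978817, was only 3.46 kb wide and scored 1.12, 1.23 and 1.10, at the 90.9 percentile of the combined list. All 9 of these regions were covered over at least 92.1% of their length in each replicate, and each was a single region there.

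Scores in the replicates followed each other closely. Across the 111 isolated regions in both, Spearman's rho between the replicate scores was 0.92, and it was 0.88 across 2436 regions of the same width class with a closer neighbour. Regions of one library share its depth and its calling and are not replicates, so rho is a description with no p. The median isolated region ranked at the 48.1 percentile of replicate 1 and at the 50.9 percentile of replicate 2, so those that were found were ordinary members of each list by score. The isolated region whose scores differed most between the replicates was 3R from 2472286 to 2486089, at 1.13 in replicate 1 and 1.53 in replicate 2, where it was split and the score belongs to a part of 7198 bp.

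**Figure D2:**
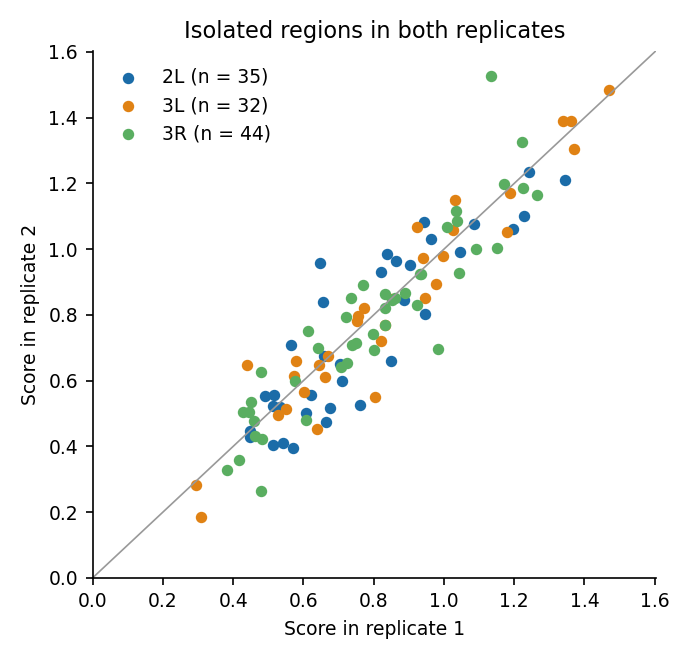
Each point is 1 of the 111 isolated regions overlapped in both replicates, with its score in replicate 1 on the horizontal axis and in replicate 2 on the vertical axis, both the authors' scores, coloured by arm; the grey line marks equal scores. The points of 2L (n = 35), 3L (n = 32) and 3R (n = 44) lie along the line up to about 1.5. The lowest scores are 0.293 in replicate 1 and 0.184 in replicate 2, and the points rank alike in both replicates (rho 0.92).

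The borders of isolated regions were placed alike in both replicates. Exactly 1 region in each replicate matched an isolated region in 97 cases, and these starts differed by a median of 109 bp and these ends by a median of 113 bp. For regions with a closer neighbour that also matched 1 to 1 these medians were 133 and 135 bp. Both borders of an isolated region lay within 200 bp in 64 of the 97, or 66.0%. In the 1853 such regions with a closer neighbour this share was 41.6%. By width, the isolated and the other regions had shares of 63.6% and 57.2% under 2 kb, 70.8% and 41.5% from 2 to 4 kb, 70.8% and 38.9% from 4 to 8 kb, and 42.9% and 39.1% from 8 to 15 kb. The isolated shares rest on 11, 48, 24 and 14 regions. No test was made, and neighbours that join or part between lists, which the rule keeps away from isolated regions, were not set apart.

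Few isolated regions were split. Of the 183, 14 were broken into several regions in 1 or both replicates (7.65%, against 19.5% of all regions inside the limits, which are wider). All were at least 4 kb wide, 5 of the 29 from 4 to 8 kb and 9 of the 23 from 8 to 15 kb. The shares in these bins were 17.2% and 39.1%, against 27.7% and 55.2% for regions with a closer neighbour, and 0% against 4.02% from 2 to 4 kb. The largest number of parts was 3.

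At like width, isolated regions scored somewhat higher than regions with a closer neighbour. The difference in medians was 0.0410 under 2 kb, 0.0723 from 2 to 4 kb, 0.106 from 4 to 8 kb and 0.113 from 8 to 15 kb in the combined list. It was above 0 in 12 of 12 combinations of arm and width bin, from 0.00604 on 2L at 2 to 4 kb to 0.427 on 3L at 8 to 15 kb, where only 4 isolated regions stood. Scores of the matched replicate regions differed the same way in each bin, by 0.0244 to 0.0478 in replicate 1 and by 0.0474 to 0.0988 in replicate 2. Under 2 kb these rest on the 23 and 25 of 75 isolated regions that were matched. Over all widths together the medians were nearly equal, at 0.456 and 0.458, while isolated regions were narrower (2335 against 2860 bp). When regions below the list's median score were dropped, neighbours included, the difference within bins, averaged with the isolated regions per bin as weights, was -0.00947 in the combined list, against 0.0698 with all regions. For the matched replicate regions it was then -0.0294 in replicate 1 and 0.00933 in replicate 2, against 0.0396 and 0.0761 with all regions. The cut was made at 0.512 on the combined score itself, above both medians under 2 kb (0.362 and 0.321). It also changed which regions counted as isolated, to 278 regions, so these values and those with all regions are not like for like. The interquartile ranges of the 2 kinds overlapped in every bin, and no test was made.

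**Figure D3:**
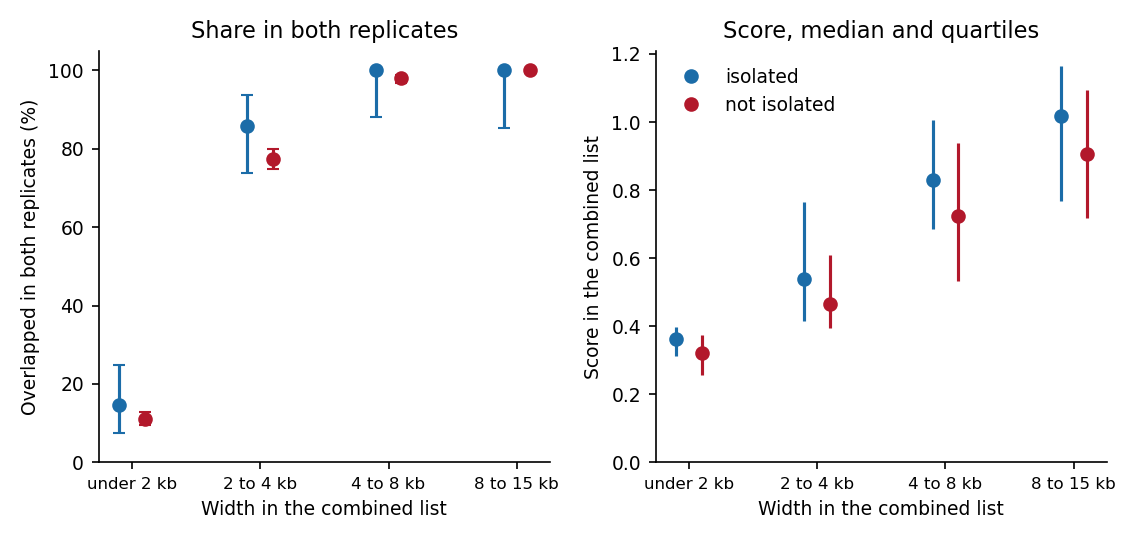
Left, the share of regions overlapped in both replicates (percent, with exact 95% intervals) by width in the combined list, for isolated regions (blue) and regions under 15 kb with a closer neighbour (red); right, their scores in the combined list as medians with quartiles. The share rises from 14.7% under 2 kb to 100% from 4 kb on for isolated regions, the intervals of both kinds overlap in each bin, and the blue medians lie above the red ones by 0.0410 to 0.113.

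The surroundings of the isolated regions differed widely. The nearer neighbour lay 10.1 to 151 kb away with a median of 19.2 kb, and the farther one had a median distance of 58.2 kb and reached 392 kb. A distance of at least 50 kb on both sides was found for 20 regions and of at least 100 kb for 5. At least 1 side of 100 kb or more was found for 53. Spearman's rho with the distance to the nearer neighbour was 0.06 for the score and 0.06 for the width (n = 183, a description across regions that share 1 list). The share in both replicates was 58.1%, 62.5%, 60.0% and 65.0% for nearer neighbours at 10 to 15, 15 to 25, 25 to 50 and at least 50 kb, on 62, 56, 45 and 20 regions.

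**Figure D4:**
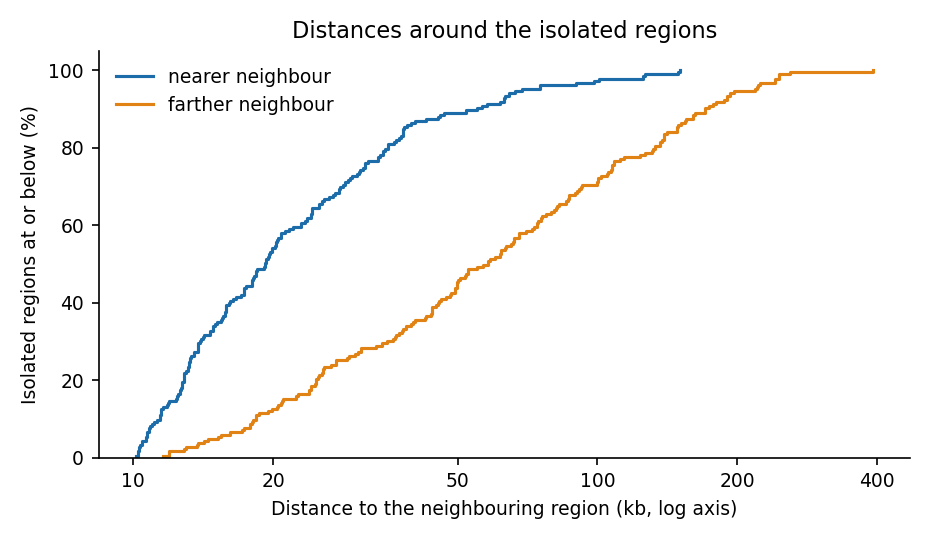
Cumulative share of the 183 isolated regions (percent) by the distance in kb, on a log axis, to the nearer neighbouring enriched region (blue) and to the farther one (orange) in the combined list. The curves start at 10.1 and 11.6 kb, just above the 10 kb limit of the rule, and have medians of 19.2 and 58.2 kb.

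The region farthest from any other was 2L from 17963241 to 17973765, of 10.5 kb, with empty stretches of 190 kb on its left and 151 kb on its right. Its scores were 0.781 in the combined list, 0.839 in replicate 1 and 0.987 in replicate 2, where it was split into 2 and 3 regions. The second was 3R from 2472286 to 2486089, of 13.8 kb, between stretches of 187 and 149 kb, with scores of 1.12, 1.13 and 1.53. The third, 3R from 8042084 to 8047515, was 5.43 kb wide and scored 0.824, 0.862 and 0.853, with 133 and 127 kb free around it. These 3 were called in both replicates, which covered between 84.1% and 98.3% of their length.

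The fourth, 2L from 14847873 to 14849104, was only 1.23 kb wide, scored 0.516 in the combined list and was in neither replicate. The fifth, 3L from 10213646 to 10218335, of 4.69 kb, had 246 kb free on its left and 101 kb on its right and scored 0.739, 0.755 and 0.798. Of the 5 most solitary regions, 4 were found in both replicates, against 60.7% of isolated regions and 65.2% of all regions inside the limits. These 4 were all wider than 4 kb, where every isolated region was in both.

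The widest isolated region was 3L from 2252252 to 2266525, of 14.3 kb, which scored 1.32 in the combined list, 1.37 in replicate 1 and 1.30 in replicate 2. After the 3R block of 13.8 kb came 2L from 5907031 to 5920684, of 13.7 kb, at 0.991, 1.09 and 1.08. Then followed the 2L block of 13.2 kb already described and 3R from 9944793 to 9957238, of 12.4 kb, at 1.16, 1.17 and 1.20. Both replicates had all 5 of these, with between 83.5% and 99.5% of the length covered.

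At the lower end, the smallest score was that of 3R from 17122965 to 17124268, of 1.30 kb, at 0.129 in the combined list and 0.451 in replicate 1, with no call in replicate 2. The next, 3L from 12329641 to 12331190, of 1.55 kb, scored 0.150, 0.293 and 0.282 and was called in both replicates, at the 1.04 and 3.39 percentiles of their lists. The third, 2L from 2011301 to 2012879, scored 0.197 in the combined list and 0.389 in replicate 1 alone. A low score thus did not keep the region of 1.55 kb from a call in both replicates, although regions in both scored higher in the median.

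Among regions found in neither replicate, the highest score was 0.684, at 2L from 8594223 to 8595223. This region was 1001 bp wide, the minimum of the combined list. The second was the solitary 2L region of 1.23 kb named above. The third was 2L from 4651686 to 4652694, of 1009 bp, at 0.456. These scores lay above the median of 0.375 for the 39 regions of this kind, and all 3 were narrower than any replicate region.

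The rule's limits cut through few regions in width and many in distance. Just inside the width limit stood the regions of 14.3 and 13.8 kb. The narrowest regions outside it with 10 kb free on both sides were 3R from 11787567 to 11809630, of 22.1 kb and score 1.22, and 3R from 15395458 to 15420576, of 25.1 kb and score 0.698. Only 5 of 365 regions of 15 kb or more stood alone in this way (1.37%), against 5.22% of regions under 2 kb, 4.67% from 2 to 4 kb, 3.25% from 4 to 8 kb and 3.99% from 8 to 15 kb. Just inside the distance limit were 3L from 17345693 to 17350794, 10.1 kb from its neighbour, with a score of 0.574, and 3L from 4682261 to 4683373, 10.2 kb away, with a score of 0.321. Just outside were 2L from 5339054 to 5341291, 9.93 kb away, at 0.456, and 3L from 16925149 to 16927060, 9.89 kb away, at 0.370.

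Isolated regions were spread over all 3 arms. There were 60 on 2L, 57 on 3L and 66 on 3R, or 3.00, 2.65 and 2.37 per Mb of sequence used. They made up 5.09%, 3.67% and 3.80% of the enriched regions of these arms. Isolated regions on 3R were in both replicates in 66.7% of cases, those on 2L in 58.3% and those on 3L in 56.1%, with exact 95% intervals that overlap (54.0% to 77.8%, 44.9% to 70.9% and 42.4% to 69.3%). For regions with a closer neighbour these shares were 64.1% on 3R, 61.4% on 2L and 60.5% on 3L. Median scores of isolated regions were 0.495 on 3R, 0.436 on 2L and 0.445 on 3L, against 0.467, 0.469 and 0.443 for regions with a closer neighbour. In 3 equal parts of the used sequence, from the lowest coordinate, 2L held 21, 21 and 18 isolated regions, 3L 22, 15 and 20, and 3R 26, 24 and 16.

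Some isolated regions followed one another along the arm. They formed 135 runs, of which 100 were a single region, 25 were pairs, 7 were runs of 3 and 3 were runs of 4, with no other enriched region between. Of the 366 sides of isolated regions, 26.2% faced another isolated region, 67.5% another region under 15 kb, and 6.28% a broad region. Of all 1426 sides of regions that faced an empty stretch of at least 10 kb, 25.7% belonged to isolated regions.

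Isolation was repeated in part in the replicate lists, which are not independent of the combined list. The same rule applied to each replicate list alone gave 208 isolated regions of 3703 inside the limits in replicate 1 and 189 of 4322 in replicate 2. Of these, 121 were shared, which was 58.2% of those of replicate 1 and 64.0% of those of replicate 2. Among the 183 isolated regions of the combined list, 117 (63.9%) overlapped an isolated region of replicate 1, 119 (65.0%) one of replicate 2, and 96 overlapped one in each. No such share is given for other regions. Another region within 10 kb was listed in replicate 1 for 1 of the 183 and in replicate 2 for 4. The rule chose empty flanks in the combined list of the same series, so these low counts are no separate support.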

How the data were processed

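The submitters' processing notes name Bowtie 0.12.7, and the genome build was FlyBase release 5, per the file headers. The authors deposited 3 lists, 1 per ChIP replicate and a combined one, with a start, an end and a score per region. How regions were called, with what threshold and input, and how replicates were combined is not given in the sources used here, and depth behind each region was unknown. In 98.5% to 100% of 400 regions per list, 2 raised to the difference of a region's score from a reference score equalled a quotient of integers (denominator up to 60000), within a relative tolerance of 1e-12. With base e or 10 at most 1.25% of scores gave one.

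Enriched rows alone were used. Distances ran edge to edge over all enriched rows of an arm. Scores of a replicate were those of its region with the largest overlap, and percentiles were taken within each list. Regions were compared with others at like width, and no test was run, since the members were chosen from lists of these same libraries. Intervals printed with shares were exact binomial ones. The members, the comparison groups and the rule for named regions were chosen with earlier results of these data known. Named were the 3 highest scores per arm in both replicates, the 3 highest in neither, the 5 most distant, the 5 widest, the 3 lowest scores and the 2 nearest to each limit on either side. Genes and sequences were planned and not analysed here. The functions were tested on simulated lists. Values were computed with pandas 2.3.3, numpy 2.4.6 and scipy 1.17.1 under Python 3.11.15, and plotted with matplotlib 3.10.9.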

Additional observations from a re-analysis of the deposited data

How the results depend on the processing

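Of 58 alternative values, 43 stayed within a set range and 15 moved out of it. The range was a factor of 1.5 for the number of isolated regions, the replicate SD for the median rank and a 95% interval for the others. This interval was exact binomial for the share in both, built from Wilson limits for its difference, and from order statistics for medians. For the score difference it left out the spread of the regions with a closer neighbour. Both outcomes for the median rank were fixed, since with 2 replicates each lies within that SD of their mean. Leaving out a replicate could not lower the share in both, so those values are no check of it. By construction, the number of isolated regions was 327 with a minimum distance of 5 kb, 84 with 20 kb and 278 after regions below the median score were dropped. That last choice also gave a median width of 4818 bp, a median score of 0.739, 95.7% in both replicates and a score difference to regions with a closer neighbour of -0.0702. Its share in both differed from that of regions with a closer neighbour by -2.96 percentage points. A higher median score follows from this cut, and score went with width (rho 0.77) and with being in both replicates. These moves are thus no separate check. Merging within 1 kb gave a median width of 2949 bp. The share in both replicates was 92.6% from 2 kb in width on and 72.5% with those at least as wide as the narrowest replicate region. Under these 2 limits the differences to regions with a closer neighbour were 3.33 and 0.944 percentage points. Without one replicate, the share in the other was 68.3% to 71.0%, its difference to regions with a closer neighbour was -2.95 to -0.197 percentage points and the median rank was 48.1 to 50.9. This difference was -1.47 points in the main setting, 6.65 under 50% reciprocal overlap and 4.31 within width bins, and the cause was not tested. The score difference, -0.00249 in all, was 0.0919 from 2 kb in width on and 0.0698 within width bins. The minimum width of the replicate regions and the absence of other replicate regions were chosen after seeing the data. The overlap rules and the leaving out of a replicate do not enter the score difference of the combined list, and no value is given. No paired analysis was possible because no result here comes from a test.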

Other observations

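Of 68 full 1 Mb windows inside the limits, 7 held none, 21 held at least 4 and the most held 6. The windows with 6 were 2L from 19 to 20 Mb, 3L from 17 to 18 Mb and 3R from 6 to 7 Mb, with 76, 80 and 60 enriched regions in all. Windows without an isolated region could be rich in regions, such as 3L from 14 to 15 Mb with 110, or poorer, such as 3R from 23 to 24 Mb with 41. The longest empty stretch beside an isolated region, 392 kb, lay to the right of 3L from 18218637 to 18219658, a region of 1022 bp with a score of 0.422 that was in neither replicate. On 3L a stretch of 246 kb lay between 2 isolated regions that were both in each replicate, the one from 9960095 to 9967694 at a score of 0.491 and the one from 10213646 to 10218335. These windows and regions were picked out after their values were seen, and no test was made.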
